A study of Mus musculus with 2 samples.

Results

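The genes described here are 10 genes of peptide and growth factor signalling that are known from sprouting vessels: apelin (Apln) and its receptor Aplnr, adrenomedullin (Adm) with its receptor Calcrl and the accessory proteins Ramp1, Ramp2 and Ramp3, angiopoietin-2 (Angpt2) and its receptor Tek, and Esm1. They were chosen by symbol from a list drawn up with earlier results of these data known, and all 10 of them were found among the 32285 features of the count matrices. Each symbol matched 1 feature, and each of the 10 genes had at least 1 UMI (unique molecular identifier, the tag that counts a captured transcript once) in the kept cells of both libraries.

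Apelin is a secreted peptide that binds the G protein-coupled receptor Aplnr on endothelial cells and takes part in vessel growth and calibre. Adrenomedullin is a vasodilator peptide, and the protein encoded by Calcrl becomes its receptor when paired with Ramp2 or Ramp3, while pairing with Ramp1 makes a receptor for calcitonin gene-related peptide. Tek, also called Tie2, is an endothelial receptor tyrosine kinase that angiopoietin-1 activates and that angiopoietin-2 can block or activate depending on context. The cells that lead a sprout, called tip cells, are known to express Apln, Esm1 and Angpt2, and Apln and Adm are known targets of the hypoxia response.

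Aortas were cut out between arch and bifurcation, digested with enzymes and profiled by 10x Genomics 3′ v3 single-cell RNA sequencing, with 1 library per group. The mice of the Cept1 library were Cept1fl/fl and carried VE-cadherin-Cre-ERT2, a tamoxifen-dependent Cre recombinase driven by the promoter of an endothelial adhesion gene, which per the labels induced overexpression of Cept1 in endothelial cells. The mice of the control library were Cept1fl/fl without Cre. Both groups were male C57BL6 littermates given tamoxifen (1 mg a day intraperitoneally on 5 days, then 5 days of recovery) when 8 weeks old or older, although the age label reads 6 to 8 weeks. Aortas of 3 mice per condition are stated, and the sources used here do not say whether they were pooled, which gate the sort used or where the overexpression allele lies. The cells of these 2 libraries are called Cept1 aorta and control aorta. The VE-cadherin promoter is active in blood endothelium of all vessel types.

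Cept1 aorta gave 95735360 UMIs over 17728 barcodes and control aorta 88220524 UMIs over 14349 barcodes, of which 10635 and 8546 were kept, and 74 barcode sequences occurred in both libraries. Levels are given in CPM, the UMIs of a gene per 1000000 UMIs of all cells of a class, and ratios are log2 of the CPM in Cept1 aorta over that in control aorta. Cells were assigned to classes by the number of distinct marker genes detected, with no member of the gene set among the markers. Blood endothelial cells numbered 1211 in Cept1 aorta and 564 in control aorta. Of these, 54.7% and 41.1% passed the arterial gate, 25.4% and 35.6% the capillary gate, and 6.94% and 12.1% the venous gate. With 1 library per group no difference has a replicate check and none was tested, and the 95% intervals cover counting error only.

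Cept1, the targeted gene, stood at 128 CPM in blood endothelial cells of Cept1 aorta and 77.1 CPM in those of control aorta, a log2 ratio of 0.73 (95% interval 0.57 to 0.89). The ratio was 0.69 in arterial, 0.91 in capillary and 0.45 (-0.14 to 1.06) in venous cells. In lymphatic endothelial cells it was 0.19 (-0.13 to 0.51) and in fibroblasts 0.11, while monocytes, which are not endothelial, also had a ratio of 0.79 (0.23 to 1.37).

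The 10 genes divided the aortic wall between them. Tek, Ramp2 and Calcrl were carried by arterial, capillary, venous and lymphatic endothelial cells alike, in both libraries. Fibroblasts, the largest class, also held 30.3% of the Ramp2 UMIs of kept cells in Cept1 aorta and 40.8% in control aorta. For Tek these shares were 25.1% and 35.2%. Aplnr and Apln were highest in capillary cells, Ramp1 was highest in smooth muscle, Ramp3 in T or NK cells, and Adm in fibroblasts. Angpt2 was spread over smooth muscle, lymphatic, Schwann, venous and fibroblast cells, and Esm1 was found in a small number of capillary, venous and fibroblast cells.

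**Figure D1:**
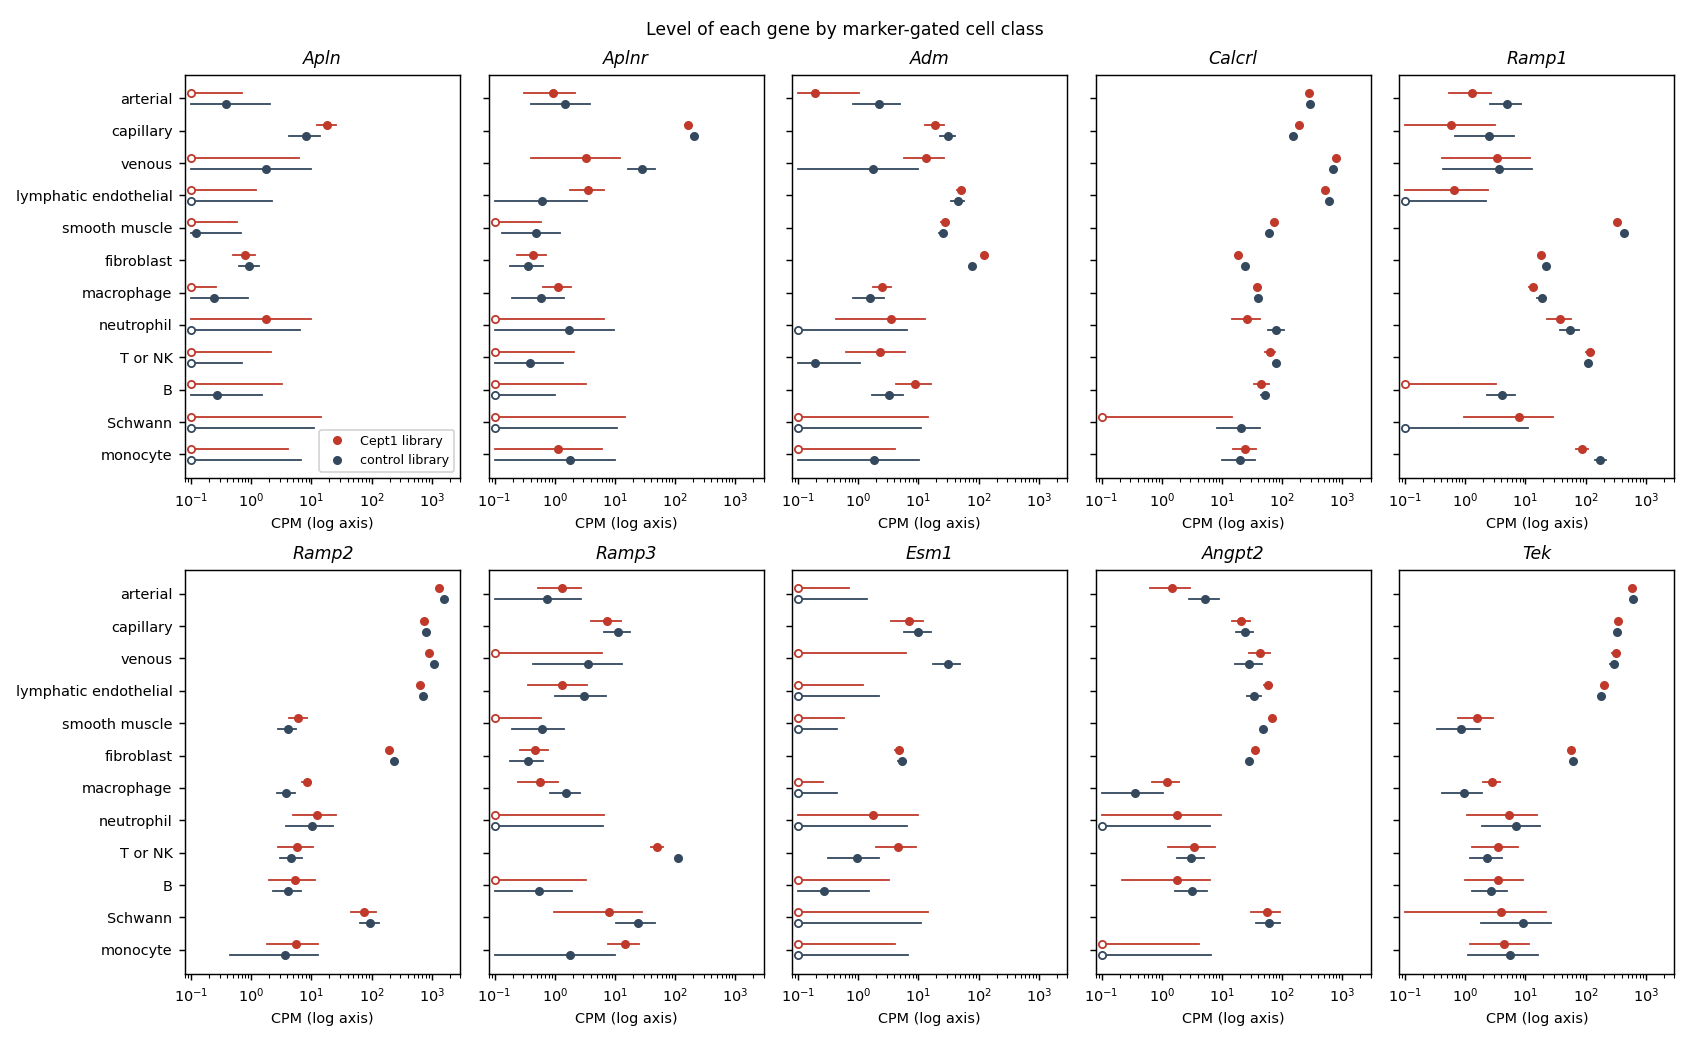
Level of each of the 10 genes in 12 marker-gated classes, with CPM on a log axis from left to right and classes down the page, Cept1 aorta in red above control aorta in dark blue. Lines are exact 95% Poisson intervals, open points at the left edge are classes with 0 UMIs, and intervals are cut at the left edge; Tek and Ramp2 run together across the endothelial classes, whereas Ramp1 is highest in smooth muscle and Adm in fibroblasts.

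Promoters are shown for 3 genes with unlike ratios in capillary cells: Apln (above 0), Adm (below 0) and Tek (near 0). They run from 250 bases before to 50 bases after the start of transcription in the RefSeq annotation of GRCm38.p6, 5′ to 3′ on the strand of the gene. A promoter was found for 7 of the 10 genes, and 5 motifs were searched on both strands, the last of them added after the matches to the other motifs had been seen. ACGTG, a form of the core of the hypoxia response element, was in 0 of the 7 promoters and in 19.6% of 32851 mouse promoters of the same length. The other form, GCGTG, was not searched, and its reverse complement CACGC occurs in the Adm promoter shown, so absence of the core cannot be stated. GGAA, the core bound by ETS factors, was in 7 of the 7, but also in 96.0% of all promoters. CCGGAA, which contains GGAA, was found in Ramp3 alone (14.9% of all promoters), AGATAA in Tek alone (11.2%), and TATAAA in none of the 7 (13.6%). Capitals mark GGAA or its reverse complement TTCC and, in Tek, AGATAA.
Apln promoter, chrX:48034804-48035103, minus strand: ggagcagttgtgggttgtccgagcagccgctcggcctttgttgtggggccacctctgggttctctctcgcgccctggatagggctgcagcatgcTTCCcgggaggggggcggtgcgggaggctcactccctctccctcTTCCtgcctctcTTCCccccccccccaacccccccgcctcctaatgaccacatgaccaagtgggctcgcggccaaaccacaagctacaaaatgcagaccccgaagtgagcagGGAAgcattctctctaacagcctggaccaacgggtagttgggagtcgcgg
Adm promoter, chr7:110627407-110627706, plus strand: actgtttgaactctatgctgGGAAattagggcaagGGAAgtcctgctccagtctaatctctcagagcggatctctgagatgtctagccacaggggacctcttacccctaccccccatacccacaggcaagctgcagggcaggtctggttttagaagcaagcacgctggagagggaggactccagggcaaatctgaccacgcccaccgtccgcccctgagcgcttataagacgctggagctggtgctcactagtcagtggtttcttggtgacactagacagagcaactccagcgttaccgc
Tek promoter, chr4:94739039-94739338, plus strand: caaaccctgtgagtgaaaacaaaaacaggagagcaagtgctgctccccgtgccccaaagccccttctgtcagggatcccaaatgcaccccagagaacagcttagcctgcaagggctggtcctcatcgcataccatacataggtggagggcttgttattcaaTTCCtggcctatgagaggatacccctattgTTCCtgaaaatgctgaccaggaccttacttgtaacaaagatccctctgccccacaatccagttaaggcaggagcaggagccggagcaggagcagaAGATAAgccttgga
The Apln promoter held 4 copies of GGAA and those of Adm and Tek 2 each, against a median of 3 over all promoters.

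The receptor Aplnr was a capillary gene in this tissue, and its level in capillary cells was slightly lower in Cept1 aorta, while its ligand Apln was higher there. Aplnr (chr2:85136225-85139923, plus strand, GRCm38) had 311 UMIs in blood endothelial cells of Cept1 aorta and 391 in those of control aorta, at 33.7 and 70.6 CPM, a log2 ratio of -1.07 (-1.29 to -0.85). Within capillary cells it stood at 166 CPM in Cept1 aorta and 203 CPM in control aorta, a ratio of -0.29 (-0.53 to -0.06). The pooled difference was thus larger than the one inside the class that held 93.2% of the endothelial Aplnr UMIs in Cept1 aorta and 83.1% in control aorta. Averaging arterial, capillary and venous levels with equal weights gave -0.46. Venous cells held 2 Aplnr UMIs in 1 cell of Cept1 aorta and 16 in 4 cells of control aorta. At least 1 Aplnr UMI was found in 39.3% of capillary cells of Cept1 aorta and 43.8% of those of control aorta, with median depths of 4475.5 and 6021 UMIs. After each cell had been thinned to 2000 UMIs, which left out 15 capillary cells in each library, the shares were 22.5% and 25.8%, and their intervals overlapped (17.9 to 27.7% and 19.7 to 32.7%). B cells had no Aplnr UMI in either library, which at 3 counts allows up to 2.68 CPM in Cept1 aorta and 0.808 CPM in control aorta.

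The capillary ratio of Aplnr depended on which capillary cells were taken. UMIs of 7 adipocyte markers summed to 385 CPM in capillary cells of Cept1 aorta and 188 CPM in those of control aorta, with all 7 genes detected in both. In the 85 capillary cells of Cept1 aorta and 58 of control aorta that had such a UMI, Aplnr stood at 163 and 299 CPM, a ratio of -0.88 (-1.23 to -0.53). In the 223 and 143 capillary cells without one, it stood at 167 CPM in Cept1 aorta and 135 CPM in control aorta, a ratio of 0.31 (-0.02 to 0.65). The intervals of the 2 ratios did not overlap, and the part of adipocyte RNA in the result was not tested.

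Apln (chrX:48025146-48034853, minus strand) was a sparse transcript, with 60 UMIs in the kept cells of Cept1 aorta and 62 in those of control aorta. In capillary cells it had 32 UMIs in Cept1 aorta (18.3 CPM) and 13 in control aorta (8.12 CPM), a log2 ratio of 1.17 (0.20 to 2.22). These came from 11 capillary cells in Cept1 aorta and 7 in control aorta, with up to 11 and 4 UMIs in a cell, and the shares of capillary cells with a UMI were 3.57% and 3.48%. These shares come from cells of unequal depth (medians 4475.5 and 6021 UMIs), and the thinned shares were 2.39% and 0.538%, with overlapping intervals (0.966 to 4.86% and 0.0136 to 2.96%). Endothelial cells with markers of several subtypes held 1 Apln UMI in Cept1 aorta and 11 in control aorta, and over all blood endothelial cells the ratio was -0.39 (-1.18 to 0.41). Fibroblasts had 25 and 29 Apln UMIs in Cept1 and control aorta, at 0.775 and 0.937 CPM. Lymphatic endothelial cells and T or NK cells had none in either library.

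Adm was lower in the pooled blood endothelial cells of Cept1 aorta and higher in its fibroblasts, a difference between classes that was not tested. Blood endothelial cells together had 5.53 CPM in Cept1 aorta and 12.3 CPM in control aorta, whereas fibroblasts had 122 CPM in Cept1 aorta and 77.6 CPM in control aorta. Adm (chr7:110627661-110629820, plus strand, with the gene model Gm28863 on the other strand) was above all a fibroblast transcript: fibroblasts held 86.5% of its UMIs among kept cells of Cept1 aorta and 77.8% in control aorta, and blood endothelial cells 1.13% and 2.20%.

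The endothelial log2 ratio of Adm was -1.15 (-1.70 to -0.61) over all blood endothelial cells, from 51 UMIs in Cept1 aorta and 68 in control aorta. In capillary cells the 33 UMIs of Cept1 aorta (18.9 CPM) and 49 of control aorta (30.6 CPM) gave -0.70 (-1.38 to -0.03). Among capillary cells with an adipocyte marker UMI the ratio was -1.08 (-2.07 to -0.16), and among those without one it was -0.08 (-1.13 to 0.99). Arterial cells had 1 UMI in Cept1 aorta and 6 in control aorta, and venous cells had 8 (in 2 cells) and 1. With the 3 subtypes weighted equally the pooled ratio was -0.09. Lymphatic endothelial cells had more Adm than any blood endothelial class, at 51.3 CPM in Cept1 aorta and 45.2 CPM in control aorta, a ratio of 0.18 (-0.23 to 0.60). Up to 35 of the 155 lymphatic UMIs of Cept1 aorta and 19 of the 74 of control aorta came from 1 cell.

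In fibroblasts the ratio of Adm was 0.65 (0.57 to 0.72), from 3919 UMIs in Cept1 aorta and 2403 in control aorta. At least 1 Adm UMI was found in 24.4% of fibroblasts of Cept1 aorta and 19.95% of those of control aorta, and in 15.2% and 11.1% after thinning. In T or NK cells, deeper than fibroblasts by median (6478 and 7398 UMIs against 4842 and 5024.5), the unthinned shares were 1.63% in Cept1 aorta and 0.159% in control aorta. The fibroblast ratio lay above 0 in each of 3 subsets defined by marker genes. It was 1.42 (1.25 to 1.59) in fibroblasts marked by Fmod, Rbp4 and Ccn5, at 99.0 CPM in Cept1 aorta and 37.0 CPM in control aorta. Fibroblasts marked by Pi16 and Gfpt2, genes of the adventitia, had 93.0 and 56.1 CPM in Cept1 and control aorta, a ratio of 0.73 (0.55 to 0.91). Those marked by C7, Penk and Bmper had the highest levels, 247 CPM in Cept1 aorta and 181 CPM in control aorta, with the smallest ratio of the 3, 0.45 (0.32 to 0.58). Smooth muscle had 27.3 and 25.6 CPM in Cept1 and control aorta, a ratio of 0.09 (-0.21 to 0.39).

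**Figure D2:**
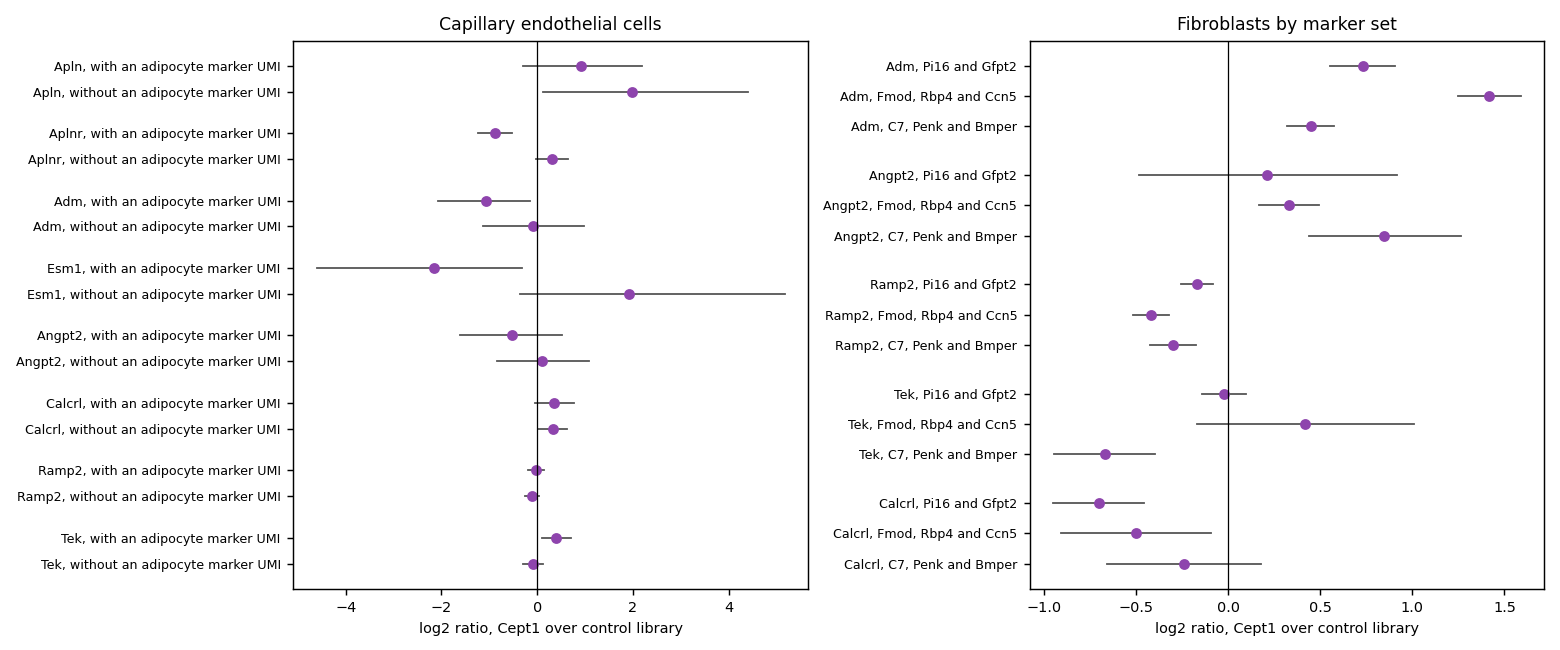
Log2 ratio of CPM, Cept1 aorta over control aorta, in capillary cells with and without an adipocyte marker UMI (left panel) and in 3 marker-defined sets of fibroblasts (right panel), with 95% counting intervals as lines. Aplnr and Adm in capillary cells lie at -0.88 and -1.08 with an adipocyte UMI and at 0.31 and -0.08 without one, and Adm lies above 0 in all 3 fibroblast sets.

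Calcrl and Ramp2, which together make the adrenomedullin receptor, were present across the endothelium and differed little there between the libraries. Calcrl (chr2:84330626-84425411, minus strand) was highest in venous cells, at 784 CPM in Cept1 aorta and 716 CPM in control aorta, followed by lymphatic cells at 509 and 615 CPM, arterial cells at 286 and 296 CPM and capillary cells at 193 and 152 CPM. This order was the same in both libraries, and the counting intervals of neighbouring classes did not overlap except for venous and lymphatic cells of control aorta (648 to 790 and 578 to 654 CPM). The log2 ratio was 0.11 over all blood endothelial cells, 0.34 (0.10 to 0.59) in capillary cells and -0.27 (-0.39 to -0.16) in lymphatic cells. In fibroblasts it was -0.42 (-0.58 to -0.26). It was -0.70 (-0.95 to -0.46) in those marked by Pi16 and Gfpt2, and -0.50 (-0.91 to -0.09) in those marked by Fmod, Rbp4 and Ccn5. Those marked by C7, Penk and Bmper had -0.24 (-0.66 to 0.18). Neutrophils had 15 Calcrl UMIs in Cept1 aorta and 46 in control aorta, a ratio of -1.59 (-2.54 to -0.72), which was -0.18 with looser gates. Immune cells also held Calcrl, at 63.0 and 79.0 CPM in T or NK cells of the Cept1 and control libraries and 45.5 and 52.5 CPM in B cells, whereas Schwann cells had none in Cept1 aorta and 7 UMIs in 1 cell of control aorta.

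Ramp2 (chr11:101246028-101259546, plus strand, overlapped on that strand by Vps25) had 1219 CPM in blood endothelial cells of Cept1 aorta and 1293 CPM in those of control aorta, a ratio of -0.08. Arterial cells were highest, with 1344 and 1608 CPM, a ratio of -0.26 (-0.31 to -0.20). Venous cells had 907 CPM in Cept1 aorta and 1088 CPM in control aorta, also -0.26, capillary cells -0.09 and lymphatic cells -0.17. All 4 ratios lay below 0 and within 1.5-fold. Fibroblasts had 192 CPM in Cept1 aorta and 233 CPM in control aorta, a ratio of -0.28 (-0.33 to -0.23). B cells had 5.35 CPM in Cept1 aorta and 4.04 CPM in control aorta, with a UMI in 2.91% and 2.39% of cells (median depths 4445 and 5381), against 93.7% and 92.2% of blood endothelial cells (median depths 6332 and 7628). Ramp2 in smooth muscle, at 6.07 CPM in Cept1 aorta and 4.02 CPM in control aorta, was within the counting intervals of B cells of the same aorta. Both transcripts were found in the same cell in 62.8% of arterial cells of Cept1 aorta and 61.6% of those of control aorta, in 45.1% and 48.8% of capillary cells, and in 88.1% and 76.5% of venous cells. These shares come from cells of unequal depth and were not thinned. For Calcrl alone, venous shares were 92.9% in Cept1 aorta and 79.4% in control aorta, but 65.1% and 72.1% after thinning.

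The 3 Ramp genes replaced one another between cell classes. Ramp2 supplied 99.7% of all Ramp UMIs in blood endothelial cells of Cept1 aorta and 99.3% in control aorta, and 91.2% in fibroblasts of both libraries, while Ramp1 supplied 98.2% and 98.9% in smooth muscle. T or NK cells mixed Ramp1 and Ramp3: Ramp3 was 28.8% of their Ramp UMIs in Cept1 aorta (87 of 302) and 49.5% in control aorta (585 of 1181). These are shares of captured molecules at the 3′ end, not corrected for how well each gene is captured.

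**Figure D3:**
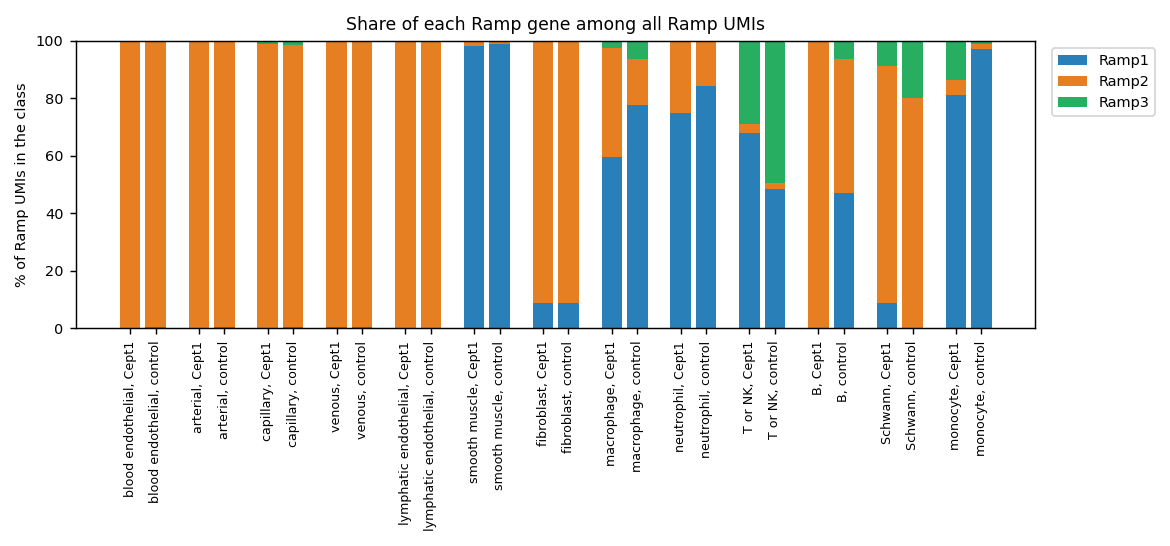
Stacked bars of the share of all Ramp UMIs (in %, vertical axis) that came from Ramp1 (blue), Ramp2 (orange) and Ramp3 (green) in each class, with Cept1 aorta left of control aorta. Blood and lymphatic endothelium is almost wholly Ramp2, smooth muscle Ramp1, and T or NK cells a mixture in which Ramp3 takes 28.8% in Cept1 aorta and 49.5% in control aorta; bars of B and Schwann cells rest on 6 to 40 UMIs.

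Ramp1 (chr1:91179822-91225196, plus strand) had 327 CPM in smooth muscle of Cept1 aorta and 432 CPM in that of control aorta, a log2 ratio of -0.40 (-0.48 to -0.32), or 1.32-fold higher in control aorta. Monocytes had 87.1 CPM in Cept1 aorta and 176 CPM in control aorta, a ratio of -1.02 (-1.47 to -0.57). T or NK cells had 118 and 110 CPM in Cept1 and control aorta. In blood endothelial cells, which express other members of the family, Ramp1 had 12 UMIs in Cept1 aorta and 22 in control aorta, a ratio of -1.61 (-2.76 to -0.53), or -0.73 with doublet calls kept, while the summed CPM of 8 smooth muscle markers there was 696 in Cept1 aorta and 481 in control aorta. The part of smooth muscle RNA in this value was not tested.

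Ramp3 (chr11:6658521-6677475, plus strand, with Gm11978 on the other strand) stood at 50.3 CPM in T or NK cells of Cept1 aorta and 113 CPM in those of control aorta, a ratio of -1.16 (-1.51 to -0.84). At least 1 UMI was found in 13.9% of T or NK cells of Cept1 aorta and 38.9% of those of control aorta, and in 5.35% and 17.6% after thinning, against 0.200% and 0.193% of fibroblasts. Their intervals did not overlap before or after thinning. A UMI of Lef1, a transcription factor found in naive T cells, was present in 188 of 245 T or NK cells of Cept1 aorta. In control aorta it was present in 567 of 627, so the make-up of the class differed between the libraries. Cells with a Lef1 UMI had a Ramp3 ratio of -1.38 (-1.79 to -0.99), and the 57 and 60 cells without one had -0.63 (-1.36 to 0.07). In capillary cells Ramp3 had 13 UMIs in Cept1 aorta and 18 in control aorta, a ratio of -0.60 (-1.75 to 0.51).

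Tek, the angiopoietin receptor, differed by less than 1.5-fold between the libraries in all 4 endothelial classes. Its venous ratio was 0.11, but 0.71 after thinning. The ligand Angpt2 was higher in lymphatic endothelium of Cept1 aorta and lower in its arterial cells, the latter from 22 UMIs over both libraries. Tek (chr4:94739289-94874976, plus strand) had 493 CPM in blood endothelial cells of Cept1 aorta and 470 CPM in those of control aorta, a ratio of 0.07 (0.00 to 0.14). Its levels ran from arterial cells (589 and 607 CPM in Cept1 and control aorta) through capillary (353 and 332 CPM) and venous cells (321 and 298 CPM) to lymphatic cells (204 and 184 CPM). Capillary and venous levels did not differ beyond their counting intervals in either library. Fibroblasts also held Tek, at 58.2 CPM in Cept1 aorta and 62.7 CPM in control aorta, and at 148 and 150 CPM in those marked by Pi16 and Gfpt2. Those marked by C7, Penk and Bmper had 39.5 CPM in Cept1 aorta and 62.8 CPM in control aorta. Their Tek ratio was -0.67 (-0.95 to -0.40), past the 1.5-fold limit. Fibroblasts assigned to none of the marker-defined sets had -0.26 (-0.45 to -0.07). In those marked by Fmod, Rbp4 and Ccn5 it was 0.42, with an interval that includes 0. These differences between sets were not tested.

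Angpt2 (chr8:18690263-18741562, minus strand, with Mcph1 on the other strand) had 176 UMIs in lymphatic endothelial cells of Cept1 aorta and 57 in those of control aorta, at 58.3 and 34.8 CPM, a log2 ratio of 0.74 (0.30 to 1.20), or 0.46 under a stricter filter of 1000 genes and 5% mitochondrial UMIs. A UMI was found in 24.8% of lymphatic cells of Cept1 aorta and 21.2% of those of control aorta, and in 10.9% and 4.76% after thinning, with overlapping intervals (7.39 to 15.4% and 1.77 to 10.1%). Arterial cells had 8 UMIs in Cept1 aorta and 14 in control aorta, a ratio of -1.80 (-3.26 to -0.45), or -0.85 with stricter gates, and at 1.51 and 5.25 CPM arterial cells were the lowest of the endothelial classes. B cells had 1.78 CPM in Cept1 aorta and 3.23 CPM in control aorta, and T or NK cells 3.47 and 3.08 CPM. The part of free RNA in the arterial ratio was not tested. In capillary cells the ratio was -0.20 (-0.89 to 0.48) and in venous cells 0.60 (-0.35 to 1.60), both with intervals that include 0. Smooth muscle had 67.1 CPM in Cept1 aorta and 48.6 CPM in control aorta, a ratio of 0.46 (0.26 to 0.67), and fibroblasts 35.5 and 28.7 CPM, a ratio of 0.31 (0.18 to 0.44). Among fibroblasts the ratio was 0.85 (0.44 to 1.26) in those marked by C7, Penk and Bmper and 0.33 (0.17 to 0.49) in those marked by Fmod, Rbp4 and Ccn5. It was 0.21 (-0.48 to 0.92) in those marked by Pi16 and Gfpt2, and 0.02 (-0.24 to 0.28) in fibroblasts assigned to none of these sets.

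Esm1, which encodes a secreted proteoglycan and is a marker of tip cells, had the ratio farthest from 0 of the 10 genes in blood endothelial cells, and it rested on few cells. Esm1 (chr13:113209659-113218098, plus strand, with Gzmk on the other strand) had 13 UMIs in 7 blood endothelial cells of Cept1 aorta and 47 UMIs in 11 cells of control aorta, at 1.41 and 8.49 CPM, a ratio of -2.59 (-3.60 to -1.68). Up to 5 of the UMIs of Cept1 aorta and 12 of those of control aorta were in 1 cell. In venous cells it had none in Cept1 aorta, which at 3 counts allows up to 5.04 CPM, and 17 UMIs in 3 cells of control aorta (30.5 CPM), 12 of them in 1 cell. Cells with markers of several subtypes had 1 UMI in Cept1 aorta and 13 in control aorta. In capillary cells, with 12 UMIs in Cept1 aorta and 16 in control aorta, the ratio was -0.54 (-1.76 to 0.63). Among capillary cells with an adipocyte marker UMI (3 and 14 Esm1 UMIs in Cept1 and control aorta) it was -2.16 (-4.60 to -0.32), and among those without one (9 and 2) it was 1.92 (-0.35 to 5.17). A UMI was found in 1.95% of capillary cells of Cept1 aorta and 1.99% of those of control aorta, while the 1627 macrophages of Cept1 aorta and 746 of control aorta (median depths 8126 and 10361) had no Esm1 UMI, which at 3 counts allows up to 0.213 and 0.361 CPM. Fibroblasts had 4.84 and 5.30 CPM in Cept1 and control aorta, a ratio of -0.13. T or NK cells had 8 Esm1 UMIs in Cept1 aorta and 5 in control aorta, and since the use of strand in counting is not given, reads of Gzmk, a granzyme gene of T cells, cannot be told apart from them.

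**Figure D4:**
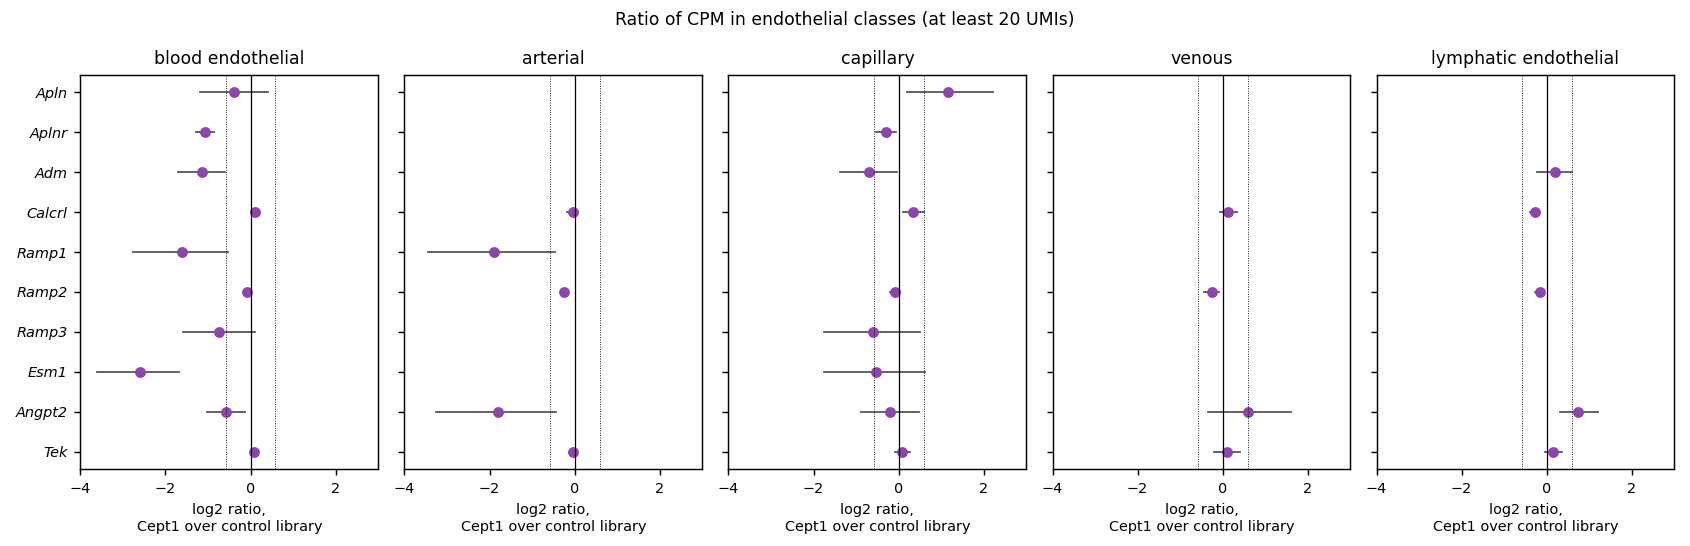
Log2 ratio of CPM in Cept1 aorta over control aorta for each gene with at least 20 UMIs over both libraries, in all blood endothelial cells and in the arterial, capillary, venous and lymphatic classes; lines are 95% counting intervals, the solid line marks 0 and dotted lines 1.5-fold. In the pooled panel Esm1 lies at -2.59, Ramp1 at -1.61 and Aplnr at -1.07, in the capillary panel Apln lies at 1.17, and Tek, Ramp2 and Calcrl lie near 0 throughout.

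Cells with at least 1 UMI of Apln, Esm1, Angpt2 or Adm made up 14.3% of capillary cells of Cept1 aorta (44 of 308) and 25.9% of those of control aorta (52 of 201). After thinning to 2000 UMIs the shares were 7.85% and 9.14%, with overlapping intervals (5.04 to 11.5% and 5.41 to 14.2%), so a difference was not detectable in capillary cells at equal depth. Of arterial cells, 1.36% in Cept1 aorta and 6.90% in control aorta had such a UMI, and 0.317% and 3.17% after thinning (2 and 7 cells), with intervals that did not overlap (0.0384 to 1.14% and 1.28 to 6.42%). Venous shares were 17.9% and 19.1%, and 8.43% and 8.20% after thinning. Apln and its receptor were found in the same cell in 7 capillary cells of Cept1 aorta and 5 of control aorta.

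Counted over the set, the 10 genes lay lower more often than higher in the pooled endothelium of Cept1 aorta. Of the 10, 5 were at least 1.5-fold lower there (Aplnr, Adm, Ramp1, Ramp3 and Esm1) and none was as much higher, where 7.93% of 13023 genes with at least 20 UMIs were lower and 5.41% higher. The lower count was 2 without cells with adipocyte UMIs, and 3, with 1 gene higher, when the subtypes were weighted equally. Angpt2, at -0.58, lay just inside the 1.5-fold limit. Of the 5 lower genes, Ramp3 had 26 UMIs in each library, a ratio of -0.74 with an interval that includes 0 (-1.58 to 0.11). Ramp1 stood at 1.30 CPM in Cept1 aorta and 3.97 CPM in control aorta, where B cells had 0 and 4.04 CPM. The median log2 ratio of the 10 was -0.66, against -0.02 over all genes. Inside the capillary class, 9 genes were measured, with 1 higher (Apln, against 8.3% of genes) and 2 lower (Adm and Ramp3, against 7.38%), and a median of -0.20 against 0.02. Of 5 measured in arterial cells, 2 were lower (Ramp1 and Angpt2, against 6.36% of genes) and 0 higher (against 5.7%). In venous cells 1 of 4 was higher (Angpt2, against 10.8% of genes) and 0 lower (against 10.6%), and in lymphatic cells 1 of 5 was higher (Angpt2, against 7.16%) and 0 lower (against 7.76%).

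Outside the endothelium, 1 of 10 was higher in fibroblasts (Adm, against 3.54% of genes) and 0 lower (against 8.23%), and 1 of 5 was higher in smooth muscle (Ramp2, against 5.56%) and 0 lower (against 5.77%). The smooth muscle ratio of Ramp2 was 0.59 (-0.12 to 1.31), and it was -0.67, -1.89 and -0.19 under a stricter cell filter, without cells with adipocyte UMIs and after thinning. In B cells 1 of 3 was higher (Adm, from 10 and 12 UMIs, against 8.41%) and 0 lower (against 14.8%). In T or NK cells 1 of 5 was lower (Ramp3, against 7.66%) and 0 higher (against 14.8%), in neutrophils 1 of 2 was lower (Calcrl, against 23.3%) and 0 higher (against 18.0%), and in monocytes 1 of 2 was lower (Ramp1, against 17.2%) and 0 higher (against 13.6%). In macrophages 5 of 8 measured genes were higher (against 6.57%) and 1 lower (Ramp3, against 6.05%). Among the 5 was Ramp2, at 8.37 CPM in Cept1 aorta and 3.85 CPM in control aorta, and the others were Tek, Angpt2, Aplnr and Adm at 1.13 to 2.76 CPM in Cept1 aorta. The intervals of Aplnr (-0.60 to 2.72), Adm (-0.29 to 1.71) and Angpt2 (-0.05 to 4.15) include 0. Those of Ramp2 (0.54 to 1.73) and Tek (0.40 to 2.83) lie above 0. In the same macrophages the 9 blood endothelial markers summed to 76.7 CPM in Cept1 aorta and 60.6 CPM in control aorta, with all 9 genes detected, and their part in these ratios was not tested. The 2 genes measured in Schwann cells were within 1.5-fold, where 14.5% of genes were higher and 17.2% lower.

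Of the other genes of these pathways, 14 of 20 in the apelin and adrenomedullin list were measured in blood endothelial cells (5 above 0, 9 below, median -0.11). Of the 14, 0 were at least 1.5-fold higher (against 5.41% of all genes) and 0 as much lower (against 7.93%). For so few genes, counts of 0 lie near these shares. Pam, which amidates adrenomedullin and other peptides, had the highest pooled ratio, at 2245 CPM in Cept1 aorta and 1535 CPM in control aorta (0.55). It was followed by the G protein subunit Gnaq (0.54) and Ackr3, a scavenging receptor that can bind adrenomedullin (0.28). Inside the classes Pam was at 0.20 in arterial, 0.25 in capillary, 0.21 in venous and -0.27 in lymphatic cells. Gnaq was at 0.41, 0.33 and 0.29 in arterial, capillary and venous cells, and Ackr3 at 0.30, -0.45 and -0.56. The lowest pooled ratios were those of Gpr182, an atypical receptor (-0.52), the protease Furin (-0.36) and the G protein subunit Gnas (-0.36). Gpr182 was at -0.69 (-1.68 to 0.32) in arterial, 0.12 in capillary, -0.002 in venous and 0.25 in lymphatic cells. Furin and Gnas lay below 0 in each of these classes. The angiopoietin and Tie list had 13 of 16 measured, 5 above 0 and 8 below, with a median of -0.10. Again 0 were at 1.5-fold in either direction, against the same shares of all genes. Angpt1, the activating ligand of Tek, had 43.8 CPM in Cept1 aorta and 32.3 CPM in control aorta (0.44) and Itga5 was at 0.41, with Svep1 (-0.51), Tnip2 (-0.38) and Akt1 (-0.31) at the other end.

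Most other tip cell genes lay below 0 in pooled, arterial and venous cells, and as many lay above 0 as below in capillary cells; these differences between classes were not tested. All 30 in the list were measured in blood endothelial cells, with 5 above 0, 25 below, 7 at least 1.5-fold lower (against 7.93% of all genes), 0 as much higher (against 5.41%) and a median of -0.42 (against -0.02). In capillary cells 14 of 28 lay above 0 and 14 below, with 2 at least 1.5-fold higher (against 8.3%), 1 lower (against 7.38%) and a median of 0.01. Dll4, the Notch ligand of tip cells, was at -0.86 in the pooled cells and -0.01 in capillary cells. It was at -1.18 (-1.70 to -0.65) in arterial and -1.37 (-2.47 to -0.35) in venous cells. The actin-bundling gene Fscn1 was at -0.91 in the pooled, -0.10 in capillary and -0.23 (-1.63 to 1.14) in venous cells. Arterial cells held 1 Fscn1 UMI in Cept1 aorta and 5 in control aorta. The guidance receptor Robo4 was at -0.89 in the pooled cells and -0.12 in capillary cells. It was at -0.63 (-1.44 to 0.21) in arterial and -0.74 (-1.40 to -0.09) in venous cells. Pgf, placental growth factor, went the other way, with 52 UMIs in capillary cells of Cept1 aorta and 11 in those of control aorta, at 29.7 and 6.87 CPM and a ratio of 2.11 (1.16 to 3.20). Foxc2 (0.29) and Lxn (0.10) were the other list genes with the highest pooled ratios. In arterial cells 20 of 26 lay below 0, 6 of them at least 1.5-fold lower (against 6.36% of all genes), with a median of -0.19. In venous cells 18 of 25 lay below 0, 8 of them at least 1.5-fold lower (against 10.6%) and 2 genes higher (against 10.8%), with a median of -0.30.

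Of 24 hypoxia response genes, 23 were measured in blood endothelial cells, 7 above 0 and 16 below, with a median of -0.26 (against -0.02). Of the 23, 5 were at least 1.5-fold lower (against 7.93% of all genes) and 0 as much higher (against 5.41%). Among the 20 with at least 50 UMIs, 3 were at least 1.5-fold lower (against 5.39% of all genes with as many UMIs). In capillary cells 6 of 19 lay above 0 and 13 below, with a median of -0.13. Ddit4, a stress-induced inhibitor of mTOR signalling, was lowest, at 67.0 CPM in Cept1 aorta and 127 CPM in control aorta (-0.92), and stood at -0.65 (-0.87 to -0.44) in capillary cells. The oxygen sensor Egln1 was at -0.70 in the pooled cells, -0.51 (-0.82 to -0.19) in arterial and -0.34 (-0.59 to -0.09) in capillary cells. Egln3, also an oxygen sensor, was at -0.68 (-1.50 to 0.13) in the pooled cells, from 28 UMIs in Cept1 aorta and 27 in control aorta. Venous cells held 17 and 23 of these UMIs, a ratio of -0.53 (-1.53 to 0.44). Kdm3a (0.33), Arnt (0.17) and Hif1a (0.16), which encodes the oxygen-regulated transcription factor subunit, were highest.

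Across 12 classes in both libraries, 24 points that share libraries and, within a library, free RNA, the level of Tek was most like that of Ramp2 (Pearson r of log2(CPM + 1) = 0.96), and Ramp2 was most like Ecscr (0.97), Tek (0.96) and Fgd5 (0.96). Aplnr was most like the glycerol channel Aqp7 (0.95), Gm12002 (0.93) and the capillary gate's marker Car4 (0.92). Angpt2 was most like Prrg3, Lama4 and the venous gate's marker Nr2f2 (0.92 to 0.94), and Adm like Gja1 (0.87), Vtn and Il17d. Calcrl was most like Acer2 (0.83), Dll1 and the blood endothelial gate's marker Tie1. Ramp1 was most like Pfkp (0.82), Dgkg and Flna, and Ramp3 like Hs3st3b1 (0.90), Ss18 and Frmd8. Esm1 was most like 1700123O20Rik, Abcb1a and Gm30835, with r no higher than 0.71. Within the set, Apln and Aplnr had an r of 0.84 and Ramp1 and Ramp2 one of -0.67. Apln had 120 UMIs in gated cells, too few for the comparison with all genes.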

How the data were processed

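The authors deposited raw UMI counts for each gene and barcode. The file headers name Cell Ranger 7.2.0, and mm10 and Seurat come from the submitters' processing notes; annotation, intron counting and strand use are not given there. Cells with 500 or more genes and 10% or less mitochondrial UMIs were kept. Scrublet (scanpy 1.11.5, expected rate 8%) called 0 cells of control aorta at its own threshold of 0.7025, so after the scores had been seen the threshold of Cept1 aorta (0.2372) was used for both, which removed 533 cells (4.77%) of Cept1 aorta and 183 (2.10%) of control aorta.

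A class gate needed 4 distinct markers (3 for B, mast, mesothelial, monocyte and dendritic cells). Cells went to the gate with the most marker UMIs relative to cells of that gate alone, and stayed unassigned if a second gate passed 0.25 of it. Endothelial subtypes needed 3 markers, with a second subtype at 0.5 or less. Mast, mesothelial and dendritic cells (under 50) were not compared.

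UMIs were summed per class, and a gene was called at 1.5-fold with 20 or more UMIs over both libraries. Ratio intervals are exact (Clopper-Pearson, from the UMI split), CPM intervals exact Poisson and shares exact binomial, each at 95%. The computation was tested on simulated data. Alternatives varied gates, filters, doublet calls, weights, thinning and scaling (TMM, edgeR 4.0.16 in R 4.3.3). Python tools were numpy 2.4.6, scipy 1.17.1 and pandas 2.3.3. Named genes are the 10 members, Cept1, the 3 highest and 3 lowest of each list in blood endothelial cells (50 or more UMIs) and the 3 genes most like each member; 1 list gene is not reported here. Members and lists were chosen with earlier results of these data known. The tip cell list holds the gate markers Sox17 and Plvap, and the angiopoietin and Tie list holds Tie1 and Ptprb. Coordinates are from GENCODE vM21 on GRCm38.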

Additional observations from a re-analysis of the deposited data

Results flagged for a closer look

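Adm and Angpt2 had ratios past 1.5-fold in opposite directions in different cell classes, and the difference between classes was not tested. For Adm the log2 ratio of Cept1 aorta over control aorta was 0.65 in fibroblasts, 0.66 in macrophages and 1.47 in B cells, against -0.70 in capillary cells. The macrophage value rests on 35 UMIs in Cept1 aorta and 13 in control aorta, with an interval that includes 0 (-0.29 to 1.71). The B cell value rests on 10 and 12, of which 6 in Cept1 aorta came from 1 cell. For Angpt2 it was 0.60 in venous cells, 0.74 in lymphatic endothelial cells and 1.74 in macrophages, against -1.80 in arterial cells. The arterial value rests on 8 UMIs in Cept1 aorta and 14 in control aorta. The macrophage value rests on 17 UMIs in Cept1 aorta and 3 in control aorta. Its interval (-0.05 to 4.15) includes 0, as does that of venous cells (-0.35 to 1.60).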

How the results depend on the processing

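No paired analysis was possible because each group holds 1 library. Comparing capillary cells with an adipocyte UMI alone, keeping only subtype-gated endothelial cells, and the splits of fibroblasts and T or NK cells were chosen after seeing the data. In pooled blood endothelial cells the 5 genes at least 1.5-fold lower became 2 without cells with adipocyte UMIs, and 3 with subtypes weighted equally, where 1 gene was also higher. In capillary cells 1 gene was lower with looser gates and with the filter of 200 genes and 20% mitochondrial UMIs. There, 0 were lower and 2 higher without cells with adipocyte UMIs, and 4 were lower among those cells alone. The 2 higher genes were Apln (14 UMIs in Cept1 aorta and 3 in control aorta) and Esm1 (9 and 2). Among the 4 lower were Ramp3 (2 and 5) and Esm1 (3 and 14). All counts under alternatives took genes with 20 or more UMIs in the main setting. No minimum was set again in the alternative, and no share over all genes is given for it. The count of lower genes in arterial cells was 0 after thinning, and the count of higher genes in venous cells was 0 with doublet calls kept, with the filter of 200 genes, and with cells weighted equally. Among ratios past 1.5-fold, signs reversed for Angpt2 in venous cells with cells weighted equally (-0.55), and for Ramp2 in smooth muscle under the stricter filter of 1000 genes and 5% mitochondrial UMIs (-0.67), without cells with adipocyte UMIs (-1.89) and after thinning (-0.19). Such ratios also reversed after thinning for Aplnr in macrophages (-0.18) and Adm in B cells (-0.84). Of 55 ratios within 1.5-fold, 33 changed sign under at least 1 alternative, among them, with subtypes weighted equally, Apln (0.83) and Angpt2 (0.18) in pooled blood endothelial cells, and, without cells with adipocyte UMIs, Aplnr (0.31) and Esm1 (1.92) in capillary cells. The cause of these changes was not tested. Over all alternatives run, Adm in capillary cells ranged between -1.08 and -0.08, while Adm in fibroblasts stayed between 0.59 and 0.94, Ramp3 in T or NK cells between -1.39 and -1.005, Apln in capillary cells between 0.86 and 2.80 and Esm1 in blood endothelial cells between -3.76 and -2.12. TMM scaling moved the ratios of T or NK cells by -0.14 and of monocytes by 0.12. Thinning gave no ratio for Ramp3 in fibroblasts and Adm in macrophages, where a library had 0 UMIs. Depth limits the pooled endothelial ratios of Ramp1, Ramp3, Apln and Esm1, each from 60 or fewer UMIs over both libraries.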
